A study of Mus musculus with 6 samples.

Results

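The constitutive proteasome genes examined here were the protein-coding genes whose symbol in any of 6 H3K9ac peak lists began with Psma, Psmb, Psmc, Psmd, Psme, Psmf or Psmg and a digit, without the 3 interferon-inducible catalytic subunits Psmb8, Psmb9 and Psmb10. Members were chosen by symbol and by having an interval of any class in any list. The rule found 40 genes among 9704 protein-coding genes named in the lists. The RefSeq gene table of the same assembly held 48 genes with such names, and 8 of these (Psma8, Psmb11, Psmc3ip, Psmd9, Psmd10, Psme2b, Psme3ip1 and Psmg1) were named in no list under that symbol. That choice rests on the same lists as the values below, so a gene needed an interval somewhere near it to be counted, and the same held for the 9704 genes it was set against. Psmd5 carries a subunit symbol but encodes an assembly chaperone.

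The lists came from chromatin immunoprecipitation with an antibody to histone H3 acetylated at lysine 9 (H3K9ac) in intestinal epithelial cells of the distal intestine from C57BL/6 mice. These animals were conventionally housed, monoassociated with E. coli (colonized by this one species only) or germ-free, and each group had 2 libraries, numbered 1 and 2 by the labels. No genetic change was named in the labels, and they do not say whether the 2 libraries of a group came from separate mice, nor whether mice were pooled, so the spread between them may be technical. The comparisons asked how the mark at these promoters differed with colonization.

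The proteasome is the protease that degrades ubiquitin-tagged proteins in the cytosol and nucleus. Its barrel-shaped core particle is built from outer alpha rings, which gate the entrance, and inner beta rings, which carry the catalytic sites. A regulatory particle caps the barrel, with a base of ATPases that unfold the substrate and a lid that removes ubiquitin. The genes are expressed in nearly all cells, and in mammals the factors Nfe2l1 and, under oxidative stress, Nfe2l2 raise many of them together through antioxidant response elements. H3K9ac is a mark of active promoters and usually lies around and just after the transcription start site. In intestinal epithelium, which is renewed every few days, the proteasome also supplies peptides for presentation on MHC class I.

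The first 3 members by number of libraries called, with ties ordered by rank within the lists (Psmd12, Psma6 and Psmd1), are shown with Psmc1 and Psmg4, the 2 members that had no interval at the start site used by the authors in any library. The Psmc1 window lies at a RefSeq start upstream of the authors' start, and intervals in conventional library 2 and germ-free library 2 lay just after it. Each sequence runs 5′ to 3′ along the gene from 250 bases before to 50 bases after a RefSeq start site (GRCm38.p6, all on the plus strand), and capitals mark matches to the antioxidant response element core TGACNNNGC or to the Ets motif CCGGAAG on either strand. The windows are chr11:107479278-107479577 for Psmd12, chr12:55398575-55398874 for Psma6, chr1:86064369-86064668 for Psmd1, chr12:100109952-100110251 for Psmc1 and chr13:34162714-34163013 for Psmg4.
Psmd12: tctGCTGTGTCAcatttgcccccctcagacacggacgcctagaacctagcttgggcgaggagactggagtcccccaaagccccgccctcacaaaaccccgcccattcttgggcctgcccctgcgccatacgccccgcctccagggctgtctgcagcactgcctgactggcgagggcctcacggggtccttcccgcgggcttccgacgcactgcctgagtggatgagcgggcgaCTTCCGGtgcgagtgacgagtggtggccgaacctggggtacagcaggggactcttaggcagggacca
Psma6: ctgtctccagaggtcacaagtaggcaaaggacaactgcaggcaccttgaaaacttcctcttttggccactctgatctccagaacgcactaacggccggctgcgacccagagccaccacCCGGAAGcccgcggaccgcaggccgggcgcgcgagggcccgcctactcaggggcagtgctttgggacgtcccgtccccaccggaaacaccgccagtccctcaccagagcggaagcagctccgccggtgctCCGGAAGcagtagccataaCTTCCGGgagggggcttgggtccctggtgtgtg
Psmd1: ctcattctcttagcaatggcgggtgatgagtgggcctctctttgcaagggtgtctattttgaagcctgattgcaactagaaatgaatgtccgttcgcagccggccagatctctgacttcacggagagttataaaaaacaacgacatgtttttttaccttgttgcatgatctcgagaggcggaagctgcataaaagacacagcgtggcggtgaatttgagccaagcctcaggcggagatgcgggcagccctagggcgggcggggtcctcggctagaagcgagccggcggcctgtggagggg
Psmc1: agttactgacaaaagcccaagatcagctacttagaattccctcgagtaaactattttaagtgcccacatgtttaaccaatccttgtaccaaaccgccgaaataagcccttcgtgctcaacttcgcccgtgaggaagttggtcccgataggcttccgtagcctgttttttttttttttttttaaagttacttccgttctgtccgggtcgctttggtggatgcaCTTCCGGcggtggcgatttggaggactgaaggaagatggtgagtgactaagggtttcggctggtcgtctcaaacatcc
Psmg4: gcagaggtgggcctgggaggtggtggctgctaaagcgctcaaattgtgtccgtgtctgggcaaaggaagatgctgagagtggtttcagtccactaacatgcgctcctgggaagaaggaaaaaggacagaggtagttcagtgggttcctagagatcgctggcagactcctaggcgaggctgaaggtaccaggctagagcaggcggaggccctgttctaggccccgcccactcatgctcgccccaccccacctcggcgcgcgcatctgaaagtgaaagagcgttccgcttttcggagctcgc

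Psmd12 held an antioxidant response element core, on the minus strand, from base -247 to -239 relative to the start site, and an Ets match from base -17 to -11. Psma6 held 3 Ets matches, of which the second ran across the start site itself. The Psmc1 window also held an Ets match, from base -28 to -22 relative to the RefSeq start, which is not the authors' start. The windows of Psmd1 and Psmg4 held neither motif.

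List length differed between the libraries. Per the labels, each library was sequenced to 20 M single-end reads of 50 bp, but the lists held 3113 and 15348 nuclear intervals in conventional libraries, 1986 and 868 in E. coli-monoassociated libraries and 4428 and 17092 in germ-free libraries. The lowest listed fold was 4.25 and 3.62 in conventional, 4.14 and 4.28 in E. coli-monoassociated and 4.04 and 3.80 in germ-free libraries. The background pileup was 0.413 and 0.381 extended reads per base in conventional, 0.690 and 0.403 in E. coli-monoassociated and 0.733 and 0.579 (inferred) in germ-free libraries. A promoter without an interval may therefore still carry the mark at a lower level. Of 8 epithelial markers, 8 and 8 had a promoter interval in conventional libraries, 6 and 5 in E. coli-monoassociated libraries and 7 and 8 in germ-free libraries. None of 6 leukocyte, 7 stromal, endothelial and muscle or 2 nerve markers had one in any library. Short lists and fewer epithelial marker calls thus went with the E. coli-monoassociated group. Counts at equal list length are given with each comparison, and the part of the marker calls was not tested.

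Promoter intervals were found for most proteasome genes in the long lists and for almost none in E. coli-monoassociated libraries. A gene counted as called if any interval assigned to it by the authors reached into a window of 1 kb on either side of its start site. Of the 40 members, 13 and 32 were called in conventional libraries 1 and 2, 1 and 0 in E. coli-monoassociated libraries 1 and 2, and 13 and 33 in germ-free libraries 1 and 2. As shares these were 32.5 and 80.0% in conventional, 2.5 and 0% in E. coli-monoassociated and 32.5 and 82.5% in germ-free libraries. Over all 9704 genes the shares were 20.5 and 74.0% in conventional, 9.48 and 4.2% in E. coli-monoassociated and 24.8 and 66.8% in germ-free libraries. The members' share was thus above that of all genes in the 4 conventional and germ-free libraries, by 5.98 to 15.7 percentage points, and below it in both E. coli-monoassociated libraries, with differences of -6.98 and -4.20 points. The exact 95% binomial (Clopper-Pearson) interval of 1 of 40 in E. coli-monoassociated library 1 ran from 0.0633 to 13.2%. For 0 of 40 in library 2 the upper bound of that interval was 8.81%, and the simpler limit of 3 counts was 7.5%. In conventional libraries the intervals ran from 18.6 to 49.1% and from 64.4 to 90.9%. In germ-free libraries they ran from 18.6 to 49.1% and from 67.2 to 92.7%. The share of all genes lay inside the members' interval in every library but germ-free library 2, where 66.8% was just below it. The differences from all genes are therefore not read as a trait of the members. Such intervals and limits cover counting error only. They take the members as independent draws, although the members are a fixed set called in the same library.

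**Figure D1:**
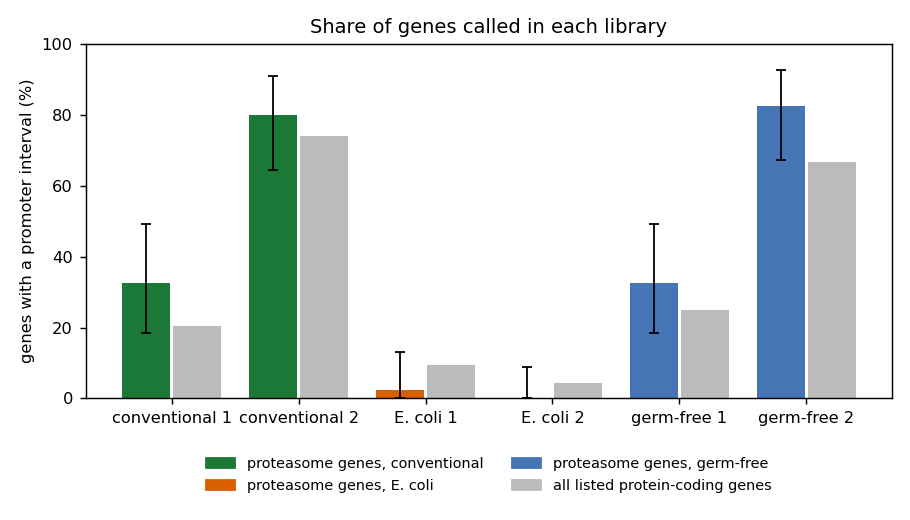
Percent of genes with a promoter interval (vertical axis) in each library (horizontal axis), for the 40 proteasome genes (coloured bars, with exact 95% binomial intervals as error bars) and for all 9704 listed protein-coding genes (grey bars). The coloured bars stand above the grey ones in the conventional and germ-free libraries and below them in the E. coli-monoassociated libraries, where they are 2.5 and 0%. The error bars take the members as independent draws and cover counting error only. They span the height of the grey bar in every library but germ-free library 2.

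Across members, 38 of 40 had a promoter interval in at least 1 library, beside 83.4% of all genes. No member was called in all 6 libraries (217 genes were, 2.24%), and Psmd12 was the one called in 5. Another 5 members were called in 4 libraries, 12 in 3, 11 in 2 and 9 in 1. Most calls came from the long lists: 37 of 40 members were called in conventional library 2 or germ-free library 2, beside 82.7% of all genes, and 28 in both of these long lists, beside 58.2%. Of the 13 members of conventional library 1, 12 were also called in conventional library 2, beside 98.9% of all genes, the exception being Psmg3, an assembly chaperone of the core particle. The 13 members of germ-free library 1 were all called in germ-free library 2, beside 92.4% of all genes.

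**Figure D2:**
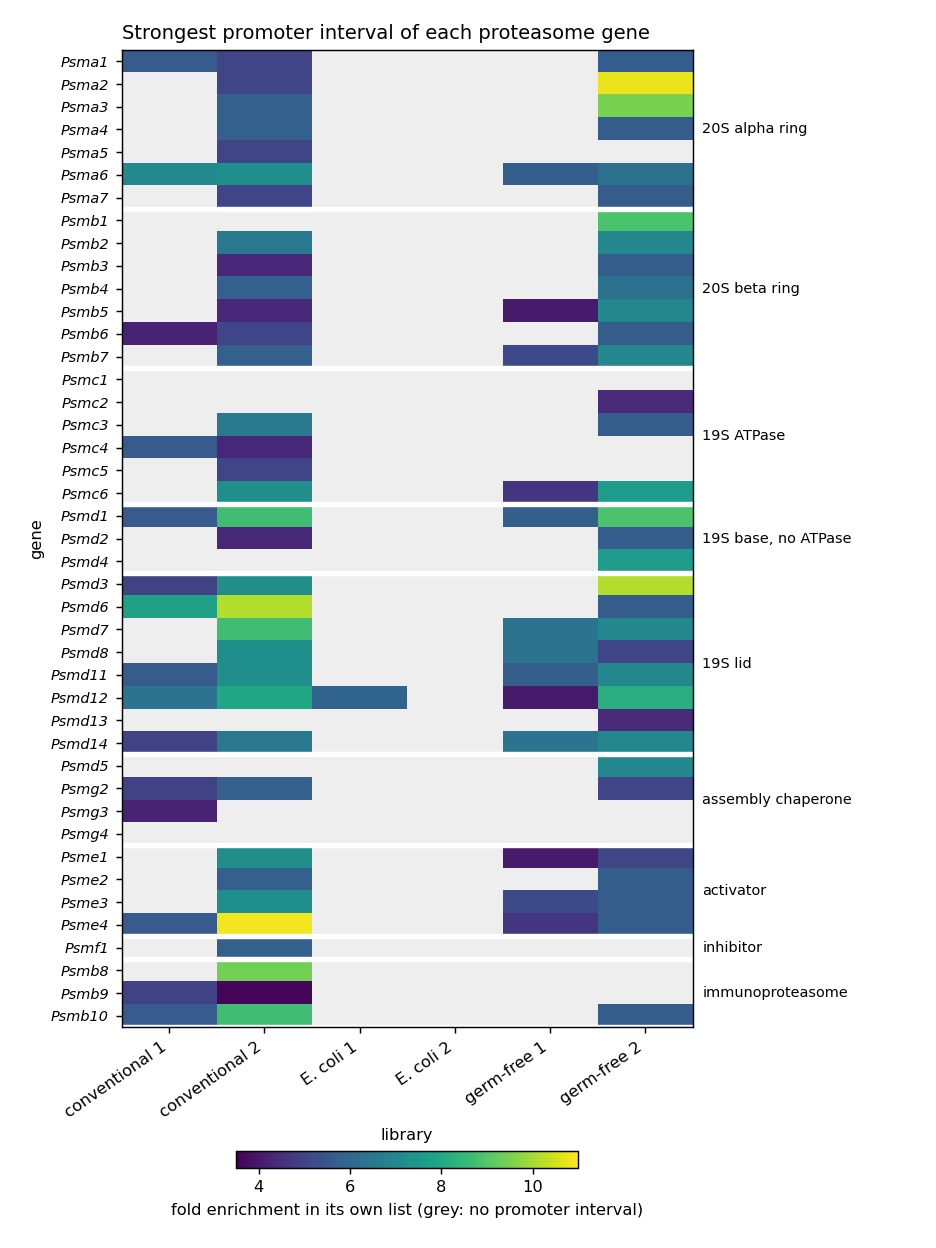
Fold enrichment of the strongest promoter interval of each proteasome gene (rows, ordered by role, with the 3 immunoproteasome subunits at the bottom) in each library (columns); grey cells had no promoter interval. The columns of conventional library 2 and germ-free library 2 are mostly filled, and in the E. coli-monoassociated columns the row of Psmd12 in library 1 is the one filled cell.

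The lid of the regulatory particle, the role with the most genes, also gathered the most calls. Of its 8 genes, 5 and 7 were called in conventional libraries, 1 and 0 in E. coli-monoassociated libraries and 5 and 8 in germ-free libraries. Role sizes differ, and whether roles differ in calls per gene was not tested. The counts of every role stand beside the shares of all genes given above for each library. Fold here is the authors' enrichment of an interval over the background of its own library, so it ranks intervals within a list and is not compared between libraries. Psmd12, a scaffold subunit of the lid whose start site is at position 107479528 of chromosome 11 (mm10, plus strand), had a fold of 6.37 and 7.97 in conventional libraries, 5.92 in E. coli-monoassociated library 1 and none in library 2, and 4.04 and 8.24 in germ-free libraries. It is the member present in every group. Its interval in E. coli-monoassociated library 1 was 146 bp long, from 369 to 514 bp after the start site, and lay within the wider intervals of conventional library 2 (108 to 788 bp) and germ-free library 2 (35 to 715 bp). Psmd14, the metalloprotease that cleaves ubiquitin chains from substrates, had a fold of 4.95 and 6.52 in conventional libraries, no interval in E. coli-monoassociated libraries, and 6.35 and 6.97 in germ-free libraries. Psmd11, which joins lid to base, had 5.66 and 7.24 in conventional libraries, none in E. coli-monoassociated libraries, and 5.77 and 6.97 in germ-free libraries. Both were thus called in all 4 libraries outside the E. coli-monoassociated group.

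Other lid genes were called in 3 libraries each. Psmd6, a lid subunit, had a fold of 7.78 and 10.14 in conventional libraries and 5.70 in germ-free library 2 alone. Psmd3, another lid subunit, had 4.95 and 7.24 in conventional libraries and 10.14 in germ-free library 2 alone. Both were missing from germ-free library 1. Psmd7, the inactive partner of Psmd14, had 8.69 in conventional library 2 alone, and 6.35 and 6.97 in germ-free libraries. Psmd8 had 7.24 in conventional library 2 alone, and 6.35 and 5.07 in germ-free libraries. Both were missing from conventional library 1, and none of the 4 had an interval in an E. coli-monoassociated library. The remaining lid gene, Psmd13, was called in germ-free library 2 alone, in an interval also assigned to Sirt3.

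The base of the regulatory particle was less evenly called. Of 6 ATPase genes, 1 and 4 were called in conventional libraries, none in either E. coli-monoassociated library, and 1 and 3 in germ-free libraries. Psmc4 was the member called in both conventional libraries and in no germ-free library, with a fold of 5.66 and 4.35, and it had no interval in E. coli-monoassociated libraries. Psmc6 showed another pattern, with 7.24 in conventional library 2 alone, and 4.62 and 7.60 in germ-free libraries. Psmc3 was called in conventional library 2 and germ-free library 2, Psmc5 in conventional library 2, Psmc2 in germ-free library 2 and Psmc1 nowhere. The ATPase counts depend on the authors' start sites. With RefSeq starts added, Psmc2 was also called in conventional libraries 1 and 2 and germ-free library 1. Psmc1 was then called in conventional library 2 and germ-free library 2. Of the 3 base subunits that are not ATPases, Psmd1, the large scaffold of the base, had a fold of 5.66 and 8.69 in conventional libraries, none in E. coli-monoassociated libraries, and 5.77 and 8.87 in germ-free libraries. Its intervals in the long lists were the widest among the members' strongest intervals there, 1263 bp in conventional library 2 and 1076 bp in germ-free library 2. Psmd2, the other scaffold, was called in conventional library 2 and germ-free library 2, and the ubiquitin receptor Psmd4 in germ-free library 2.

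In the core particle, most genes were called in the long lists and few in the short ones. All 7 alpha ring genes were called in conventional library 2 and 6 in germ-free library 2, against 2 in conventional library 1 and 1 in germ-free library 1. Psma6 was called in all 4 of these, with a fold of 7.08 and 7.24 in conventional libraries, none in E. coli-monoassociated libraries, and 5.77 and 6.33 in germ-free libraries. Psma1 had 5.66 and 5.07 in conventional libraries and 5.70 in germ-free library 2 alone. Psma2, Psma3, Psma4 and Psma7 were called in conventional library 2 and germ-free library 2, and Psma5 in conventional library 2. Of the 7 beta ring genes, 1 and 6 were called in conventional libraries, none in E. coli-monoassociated libraries, and 2 and 7 in germ-free libraries.

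The 3 constitutive catalytic subunits of the beta ring all had intervals in the conventional and germ-free groups. Psmb5, with the chymotrypsin-like site, had a fold of 4.35 in conventional library 2 alone, and 4.04 and 6.97 in germ-free libraries. Psmb6, with the caspase-like site, had 4.25 and 5.07 in conventional libraries and 5.70 in germ-free library 2 alone. Psmb7, with the trypsin-like site, had 5.79 in conventional library 2 alone, and 5.19 and 6.97 in germ-free libraries. None of the 3 had an interval in an E. coli-monoassociated library. The structural subunits Psmb2, Psmb3 and Psmb4 were called in conventional library 2 and germ-free library 2, and Psmb1 in germ-free library 2.

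The 3 inducible subunits that replace them in the immunoproteasome were called in conventional libraries. Psmb10 had a fold of 5.66 and 8.69 in conventional libraries and 5.70 in germ-free library 2 alone. Psmb9 had 4.95 and 3.62 in conventional libraries and none elsewhere, in intervals shared with its neighbour Tap1. Psmb8 had 9.41 in conventional library 2 and none elsewhere. The calls of Psmb10 were in the same libraries as those of Psma1, Psmb6, Psmd3, Psmd6 and Psmg2, and the calls of Psmb9 in the same libraries as those of Psmc4. Whether the inducible and constitutive subunits differ was not tested.

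Among the activators, which open the core particle without ubiquitin, 1 and 4 of 4 genes were called in conventional libraries, none in E. coli-monoassociated libraries, and 3 and 4 in germ-free libraries. Psme4, the large nuclear activator, was called in all 4 libraries outside the E. coli-monoassociated group, with a fold of 5.66 and 10.86 in conventional and 4.62 and 5.70 in germ-free libraries. Psme3, which forms the nuclear ring activator, had 7.24 in conventional library 2 alone, and 5.19 and 5.70 in germ-free libraries. Psme1, a subunit of the interferon-inducible ring activator, had 7.24 in conventional library 2 alone, and 4.04 and 5.07 in germ-free libraries. Its partner Psme2 was called in conventional library 2 and germ-free library 2. Of the 4 assembly chaperones, Psmg2 had a fold of 4.95 and 5.79 in conventional libraries and 5.07 in germ-free library 2 alone. Psmd5 was called in germ-free library 2, Psmg3 in conventional library 1 and Psmg4 nowhere. Psmf1, which inhibits the core particle in vitro, was called in conventional library 2.

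E. coli monoassociation was set against germ-free housing first. The mean share of members called was 1.25 ± 1.77% in E. coli-monoassociated libraries and 57.5 ± 35.4% in germ-free libraries (SD, n = 2 each), a difference of -56.25 percentage points. Every E. coli-monoassociated library lay below both germ-free libraries (exact permutation test, two-sided, p = 0.333, the smallest p that 2 libraries against 2 allow). The same difference over all genes was -38.98 points (6.84 against 45.8%, exact permutation p = 0.333), so a lower share was a feature of the lists as a whole. When every list was cut to its top 868 intervals by significance, the members called were 1 and 0 in E. coli-monoassociated libraries and 0 and 2 in germ-free libraries. The difference was then -1.25 points, and the groups were no longer separated. Of all 9704 genes, that cut left 393 and 408 called in E. coli-monoassociated and 517 and 647 in germ-free libraries. In the full lists without germ-free library 2 the members' difference was -31.25 points.

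Taken gene by gene, 13 members were called in both germ-free libraries: Psma6, Psmb5, Psmb7, Psmc6, Psmd1, Psmd7, Psmd8, Psmd11, Psmd12, Psmd14, Psme1, Psme3 and Psme4. All but Psmd12, 12 of 13 (92.3%), were in neither E. coli-monoassociated library, beside 65.6% of the 2224 genes called in both germ-free libraries. Over all genes, those with weaker intervals were missing more often, so the genes were also divided at their median rank in the germ-free lists. In the lower part 8 of 9 members were in neither E. coli-monoassociated library, against 81.4% of all genes there, and in the upper part 4 of 4, against 49.3%. With so few members in the upper part, nothing particular to proteasome genes is read from this. Conversely, no member was called in both E. coli-monoassociated libraries, whereas 247 genes were, and of these 0 were in neither germ-free library (0.0%). The count of 12 of 13 became 2 of 2 under a -log10 q minimum of 5 and 0 of 0 in lists cut to their top 868 intervals. Without germ-free library 1 it was 32 of 33, but a call in germ-free library 2 alone then sufficed. Under the -log10 q minimum, 245 and 62 of all 9704 genes were called in E. coli-monoassociated and 878 and 3432 in germ-free libraries. The share of all genes with this pattern is not given under these settings, so nothing particular to the members is read from the counts.

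Conventional and germ-free libraries differed by less than the spread between libraries of a group. The mean share of members called was 56.25 ± 33.6% in conventional libraries and 57.5 ± 35.4% in germ-free libraries (SD, n = 2 each), a difference of -1.25 points (exact permutation test, two-sided, p = 1). The direction depended on the setting. In lists cut to their top 868 intervals the difference was 3.75 points. There 3 and 2 members were called in conventional and 0 and 2 in germ-free libraries. Of all genes, that cut left 556 and 718 called in conventional and 517 and 647 in germ-free libraries. In the full lists the difference was 22.5 points without conventional library 1 and 23.75 points without germ-free library 2. Of 12 members called in both conventional libraries, Psmc4 alone was in neither germ-free library (8.33%), beside 3.25% of 1967 genes (5.48% of those in the lower part by rank and 0.934% in the upper part). The 12 were Psma1, Psma6, Psmb6, Psmc4, Psmd1, Psmd3, Psmd6, Psmd11, Psmd12, Psmd14, Psme4 and Psmg2. Of the 13 members called in both germ-free libraries, 0 were in neither conventional library, beside 2.47% of 2224 genes (4.23% in the lower part by rank and 0.642% in the upper part). Psmc4 no longer stood out when intervals needed a fold of 5 or more or an overlap of 200 bp. Without germ-free library 2 the count was 6 of 12, with absence judged in germ-free library 1 alone. The share of all genes under these settings is not given.

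Conventional housing set against E. coli monoassociation gave the reverse of the first comparison, and both share the E. coli-monoassociated libraries. The difference in mean share was 55.0 points (56.25 ± 33.6% in conventional and 1.25 ± 1.77% in E. coli-monoassociated libraries, SD, n = 2 each, exact permutation test, two-sided, p = 0.333). Over all genes it was 40.4 points. For the members it was 5.0 points in lists cut to their top 868 intervals. Of all genes, that cut left 556 and 718 called in conventional and 393 and 408 in E. coli-monoassociated libraries. In the full lists without conventional library 2 the members' difference was 31.25 points. Of the 12 members called in both conventional libraries, 11 (91.7%) were in neither E. coli-monoassociated library, beside 61.9% of 1967 genes. In the lower part by rank these were 8 of 8 members against 78.7% of all genes, and in the upper part 3 of 4 against 44.5%. The count of 11 of 12 became 3 of 3 under a -log10 q minimum of 5 and 1 of 1 in lists cut to their top 868 intervals. Without conventional library 1 it was 31 of 32, but a call in conventional library 2 alone then sufficed. Under the -log10 q minimum, 873 and 3607 of all 9704 genes were called in conventional and 245 and 62 in E. coli-monoassociated libraries. The share of all genes with this pattern is not given under these settings, so nothing particular to the members is read from the counts. Over the 3 groups, 63.4% of the sum of squares of the members' share lay between groups (exact permutation test over 15 splits, p = 0.333, the smallest possible being 0.0667).

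A set of 6 members, Psma6, Psmd1, Psmd11, Psmd12, Psmd14 and Psme4, was called in both conventional and both germ-free libraries, as were 1200 genes (12.4%). All of these but Psmd12 were in neither E. coli-monoassociated library, 5 of 6 members beside 48.7% of the 1200. The choice of the 6 rests on calls in the same lists, so this count is a description.

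The rank of the proteasome intervals differed from list to list. The median percentile rank of the members' strongest promoter intervals, where 100 is the strongest in the list, was 46.4 in conventional library 1 and 61.1 in conventional library 2, against 46.4 and 73.9 for all called genes. It was 39.3 in germ-free library 1 and 72.8 in germ-free library 2, against 58.3 and 72.8 for all called genes. The share of these member intervals with a percentile rank above 50 was 23.1 and 68.8% in conventional libraries, against 43.9 and 67.7% for all called genes. In germ-free libraries it was 46.2 and 84.8%, against 56.3 and 70.2%. Psmd12 stood at 60.4 in E. coli-monoassociated library 1, where the median of all called genes was 41.5. The members' highest ranks were 87.3 in conventional library 1 (Psmd6), 96.0 in conventional library 2 (Psme4), 73.3 in germ-free library 1 (Psmd7, Psmd8 and Psmd14) and 96.7 in germ-free library 2 (Psma2). In reads, the strongest member interval reached a pileup of 10 and 14 extended reads in conventional libraries, 9 in E. coli-monoassociated library 1, and 10 and 16 in germ-free libraries. The weakest had 5 and 5 in conventional libraries, 9 in E. coli-monoassociated library 1 and 6 and 6 in germ-free libraries, where the lists' own minima were 5 and 4 in conventional, 6 and 5 in E. coli-monoassociated and 6 and 5 in germ-free libraries. Many member calls thus lay a few reads above the threshold.

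**Figure D3:**
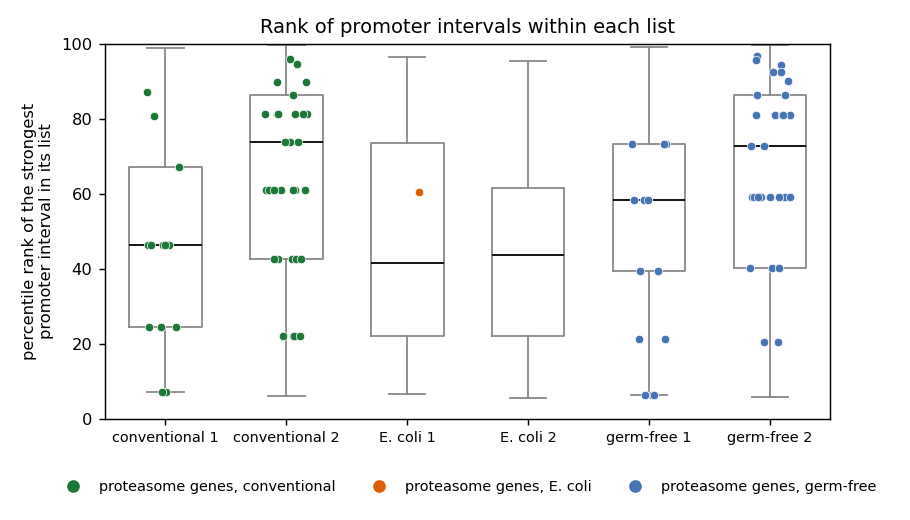
Percentile rank of the strongest promoter interval within its list (vertical axis, 100 is the strongest) by library (horizontal axis): coloured points are the called proteasome genes and boxes show the quartiles over all called genes, with the median as a line and whiskers of up to 1.5 times the box. The points spread over the whole box and reach 96.0 in conventional library 2 and 96.7 in germ-free library 2; 1 point (Psmd12, 60.4) stands in E. coli-monoassociated library 1.

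The mark lay mainly after the start site. Of 92 gene and library pairs with a member interval, 83 (90.2%) had the strongest interval centred downstream, with a median distance of 415.5 bp, against 78.5% and 377.5 bp over all genes. These pairs repeat genes across libraries, so the difference is a description. Of the 9 strongest intervals centred before the start site, 8 were also assigned to a neighbouring gene. They belonged to Psmg2 in all 3 libraries that called it, to Psma7 and Psme2 in conventional library 2 and germ-free library 2, and to Psmc2 in germ-free library 2. Psma6 in germ-free library 1 made up the rest. Conventional library 2 gave Psmd1 an interval that spanned -86 to 1176 bp relative to the start site at position 86064619 of chromosome 1, and in germ-free library 2 it spanned -124 to 951 bp. Psma6, whose start site is at position 55398825 of chromosome 12, had its strongest interval at 109 to 258 bp in conventional library 1, 31 to 637 bp in conventional library 2, -454 to -303 bp in germ-free library 1 and 868 to 1057 bp in germ-free library 2. Germ-free library 2 also gave it an interval at -13 to 744 bp, with a pileup of 8 against 9 in the strongest. Further intervals lay at 338 to 529 bp in conventional library 1 and at -441 to -295 and 736 to 977 bp in conventional library 2. The strongest intervals alone thus do not show that the mark lay elsewhere in a group.

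Members called in a pair of libraries mostly had overlapping intervals there, as did all genes. The 12 members called in both conventional libraries had overlapping intervals in the pair, beside 96.2% of all genes called in both, and so had the 28 members called in both long lists, beside 91.0%. Between the germ-free libraries, 9 of 13 overlapped, beside 91.3% of all genes, and Psma6, Psmb5, Psmd7 and Psmd8 did not. Between conventional library 1 and germ-free library 1, 4 of 6 overlapped, beside 82.4% of all genes, and Psma6 and Psmd11 did not. Both overlapped between conventional library 2 and germ-free library 1, where 12 of 13 members did and Psmb5 did not. Between conventional library 1 and germ-free library 2, 11 of 11 overlapped. The shares of all genes in those other pairs are not given. In 9 of the 38 members with an interval (23.7%, beside 23.5% of all genes with one) a promoter interval was also assigned to another gene. The mark in such a shared interval cannot be given to either gene. The pairs were Psma2 with Mrpl32, Psma4 with AY074887, Psma7 with Ss18l1, Psmb5 with Mir686, Psmc2 with Dnajc2, Psmc5 with Ftsj3, Psmd13 with Sirt3, Psme2 with Rnf31 and Psmg2 with Cep76. Psme2 also had an interval assigned to it alone in conventional library 2, 329 to 475 bp after the start site, with a fold of 4.35.

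**Figure D4:**
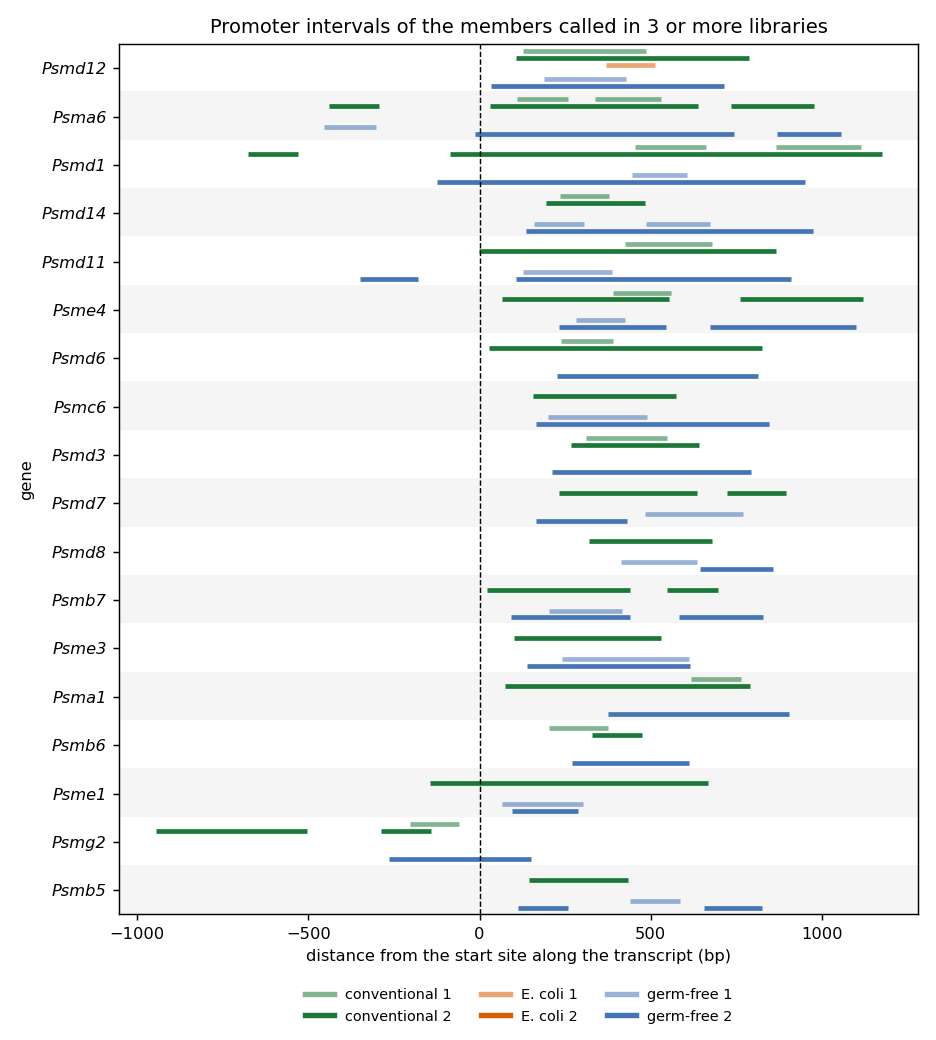
Extent of every promoter interval of the 18 members called in 3 or more libraries, as distance from the start site along the transcript (horizontal axis, bp), with 1 line per interval coloured by group (paler for library 1). Most lines start after 0, the long lists give the longer lines, and Psmg2 has its lines mainly before 0.

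For 3 members, intervals lay near a RefSeq start site or gene boundary other than the start the authors used. Psmc1 had no interval within 1 kb of the authors' start site at position 100112331 of chromosome 12, but RefSeq placed a start upstream, at -2129 bp. An interval of 366 bp with a fold of 5.79 in conventional library 2 and one of 334 bp with 6.97 in germ-free library 2 were centred 453.5 and 443.5 bp after that start. Psmc2 was called at the authors' start in germ-free library 2 alone, yet had intervals around a second RefSeq start 1464 bp downstream in conventional libraries 1 and 2 and germ-free libraries 1 and 2, with a fold of 6.37, 5.79, 6.93 and up to 6.33. Psma3 had intervals around its 5′ end in the RefSeq gene table, at -5340 bp, in conventional library 2 (a fold of up to 6.52) and germ-free library 2 (5.07). An interval of 147 bp, with a pileup of 6 and a fold of 4.99, lay centred at -982 bp from that 5′ end in E. coli-monoassociated library 2, the one interval near any member in that list. With the starts of the RefSeq promoter table added, which do not include this 5′ end of Psma3, 14 and 34 members were called in conventional libraries, 1 and 0 in E. coli-monoassociated libraries and 14 and 34 in germ-free libraries. Of all 9704 genes, 2019 and 7263 were then called in conventional, 934 and 416 in E. coli-monoassociated and 2440 and 6561 in germ-free libraries.

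**Figure D5:**
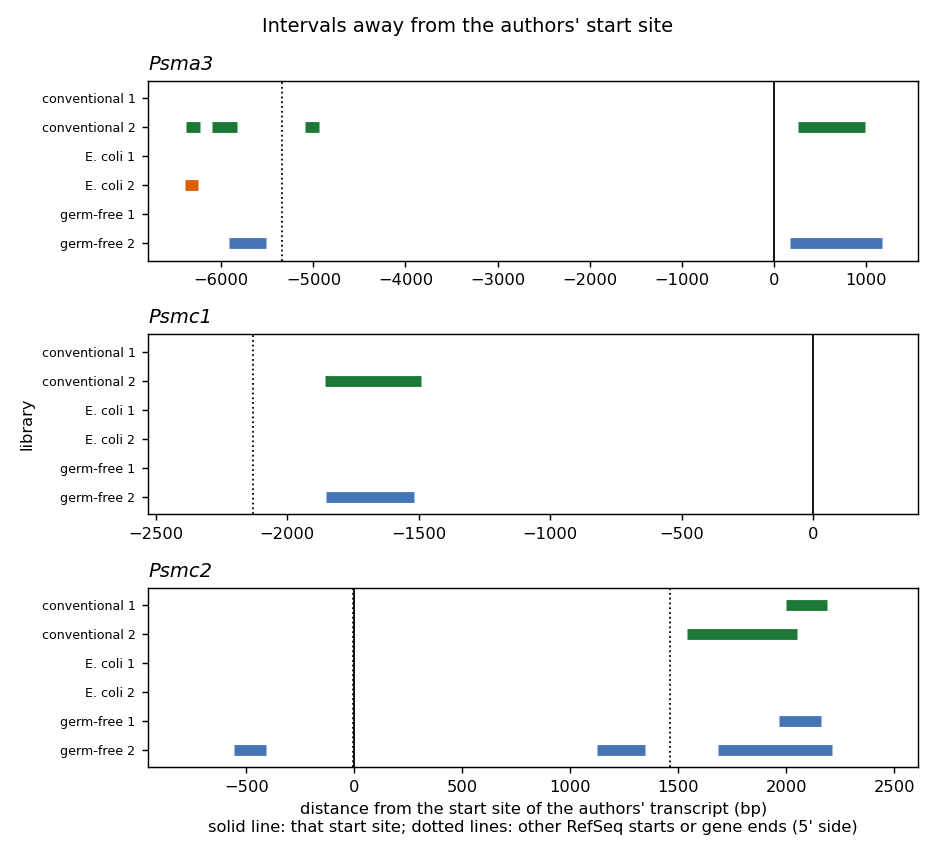
Intervals assigned to Psma3, Psmc1 and Psmc2 in each library (rows, coloured by group) as distance from the authors' start site (horizontal axis, bp), with that start as a solid line and other RefSeq starts, or for Psma3 the 5′ end of the gene, as dotted lines. For Psmc1 both intervals lie after the dotted line at -2129 bp, and for Psmc2 the 4 conventional and germ-free libraries have intervals near the dotted line at 1464 bp.

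Promoter sequence was compared for the 33 members with an entry in the RefSeq promoter table, beside all 17491 genes of the table. The Ets motif CCGGAAG was present in 13 members (39.4%), in 12.9% of all genes and in 24.0% of the 6614 genes of the table with a promoter interval. Those 13 were Psma6, Psmc1, Psmc2, Psmc6, Psmd2, Psmd4, Psmd6, Psmd11, Psmd12, Psmd13, Psme3, Psme4 and Psmg3, from the alpha ring, base, lid, activators and chaperones. The antioxidant response element core TGACNNNGC stood in 5 members (15.2%), Psmb5, Psmb6, Psmc6, Psmd12 and Psme4, beside 14.8% of all genes and 17.3% of those with an interval. Sp1 motifs (GGGCGG) were found in 20 members (60.6%), beside 49.2% of all genes and 71.4% of those with an interval. CCAAT, the NF-Y motif, was present in 11 members (33.3%), beside 42.3% of all genes and 41.5% of those with an interval. GCATGCG, the nuclear respiratory factor motif, was present in 2 members (6.06%), beside 4.95% of all genes and 7.86% of those with an interval. TATAAA was present in 3 members (9.09%), beside 14.8% of all genes and 7.95% of those with an interval. The motifs were searched on both strands, and each was counted without regard to overlap with another. A match is a description of letters, not a bound site. The median GC content of member promoters was 59.0%, against 56.3% over all genes.

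Other genes that serve the proteasome were described from a list of 33 genes for ubiquitin supply, substrate delivery, proteasome assembly and its transcriptional control, of which 29 had a promoter interval in some library. Of the 33, 12 and 28 were called in conventional libraries, 4 and 1 in E. coli-monoassociated libraries and 12 and 27 in germ-free libraries. Genes called in E. coli-monoassociated library 1 included Ubqln1, a shuttle for ubiquitinated proteins (8.29), Ube3a, a ubiquitin ligase that binds the proteasome (5.92), and Nfe2l2, the oxidative stress factor (4.14). These counts are read against the shares of all genes given above for each library. Those shares cover only genes named in a list, so the like denominator here is 29, not 33. Of the 12 called in both germ-free libraries, 9 were in neither E. coli-monoassociated library, beside 65.6% of all genes. Of the 12 called in both conventional libraries, 9 were in neither as well, beside 61.9% of all genes.

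The regulators and assembly factors named next were called in both long lists. Nfe2l1, the factor that restores proteasome gene expression when the protease is inhibited, was called with a fold of 5.79 in conventional library 2 and 6.97 in germ-free library 2, and its activating protease Ddi2 with 6.37 and 5.07 in conventional libraries and 6.33 in germ-free library 2. Nfe2l2 had 6.37 and 10.86 in conventional libraries, 4.14 in E. coli-monoassociated library 1 and 11.4 in germ-free library 2. Sem1, the smallest lid subunit, which lacks a Psm symbol, had 9.91 and 10.86 in conventional libraries, none in E. coli-monoassociated libraries, and 6.35 and 11.4 in germ-free libraries. Akirin2, which brings proteasomes into the nucleus, had 4.25 and 10.14 in conventional libraries, none in E. coli-monoassociated libraries, and 6.93 and 10.8 in germ-free libraries. Pomp, the maturation chaperone of the core particle, had 6.52 in conventional library 2 alone, and 6.35 and 6.33 in germ-free libraries. Vcp, the ATPase that extracts substrates, had 7.24 in conventional library 2 alone, and 4.62 and 7.60 in germ-free libraries.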

How the data were processed

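H3K9ac libraries of intestinal epithelial cells (2 conventional, 2 E. coli-monoassociated, 2 germ-free) were grouped by the sample labels. The submitters' processing notes name mm10, MACS2 2.1.1.20160309 and Bowtie 1.2.0; peak calling options and any input control were not given in the sources used here. Every library had its own deposited peak list, with the pileup (coverage by extended reads, a signal), −log10 p and −log10 q and the fold enrichment (a ratio) of each interval, and the authors' region class, transcript and gene. The deposited list of germ-free library 2 had 14 header names over 13 cells per line and no pileup, which was inferred from the steps of its fold values. Lines that repeat an interval for another summit were merged and mitochondrial intervals left out. Some mitochondrial lines lacked cells; because of these, some columns were treated as unit other.

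Gene names were matched to RefSeq (GRCm38.p6): 10566 of 10621 matched. Start sites came from the authors' transcripts, or from RefSeq for 407 genes; 105 genes with neither used the authors' promoter class. Lists hold calls and no read counts, so no count model was used: shares of members called were compared by exact permutation of libraries (threshold 0.05, out of reach with 2 libraries per group), in SciPy 1.17.1, NumPy 2.4.6 and pandas 2.3.3 under Python 3.11.15, with figures from matplotlib 3.10.9, and the scripts were tested on simulated data. The members, lists and tests were chosen with earlier results of these data known. Values in every library are given for the members called in the most libraries and for those called in both libraries of a group and neither of another. Alternatives were other windows (500 and 2500 bp), −log10 q and fold limits of 5, equal list lengths, an overlap of 200 bp, any interval in the window, each library left out, replicate numbers as a block and, chosen after seeing the data, added start sites from the RefSeq promoter table. Values of 1 gene of the list of other proteasome-related genes are not reported here. Motif sequences came from the RefSeq promoter table.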

Additional observations from a re-analysis of the deposited data

How the results depend on the processing

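For E. coli-monoassociated minus germ-free libraries, the difference in the share of members called kept its sign under every setting run. So did conventional minus E. coli-monoassociated libraries. With equal numbers of intervals these differences were -1.25 and 5.0 points. The -1.25 points came from 1 and 0 members called in E. coli-monoassociated and 0 and 2 in germ-free libraries, so those groups were no longer separated. At −log10 q of 5 the differences were -25.0 and 22.5 points. Of all 9704 genes, that limit left 873 and 3607 called in conventional, 245 and 62 in E. coli-monoassociated and 878 and 3432 in germ-free libraries. Without 1 library each the members' differences ran from -81.25 to -31.25 and from 31.25 to 78.75 points. Conventional minus germ-free changed sign with an equal number of intervals (3.75 points), was 0 with added RefSeq starts and ran from -26.25 to 23.75 points without 1 library. Members in both conventional and neither E. coli-monoassociated libraries numbered 3 at −log10 q of 5, 6 at a fold of 5, 1 with equal numbers, 4 with an overlap of 200 bp and 11 to 31 without 1 library. Members of both germ-free lists that neither E. coli-monoassociated list held numbered 2, 0 and 7 at −log10 q of 5, with equal numbers and with an overlap of 200 bp, and 12 to 32 without 1 library. Psmc4, in both conventional and neither germ-free libraries, was lost at a fold of 5 and with an overlap of 200 bp (0 members each), and the count was 1 to 6 without 1 library. Members of both germ-free lists that neither conventional list held numbered 0 to 7, and those in all libraries left 0 to 1 (Psmd12, without E. coli-monoassociated library 2). The share of intervals centred downstream was 100% at −log10 q of 5 and with equal numbers. With 1 library left out, its group was judged by the remaining library alone, a looser condition for such counts. The cause of these moves was not tested. The share of all genes with each pattern is not given under these settings. In the full lists 61.9% of genes in both conventional and 65.6% of genes in both germ-free libraries were in neither E. coli-monoassociated library. Nothing particular to the members is read from the counts. With the replicate number as a block (replicate block), the differences themselves stay at -56.25, -1.25 and 55.0 points, the smallest possible exact p is 0.5 for 2 groups, and the 2 differences from the E. coli-monoassociated group had p = 0.5, conventional minus germ-free p = 1 and the 3 groups p = 0.333; the labels do not say that a number pairs libraries. Of all comparisons of a result with an alternative, 149 were counted as kept, 20 as moved and 3 as turned in sign. A difference could count as kept when its size fell, as from -56.25 to -1.25 points. Members called in both E. coli-monoassociated libraries numbered 0 under nearly every setting, so results on them could not move. The tally therefore does not measure how stable the results were. Weak intervals and list length limit what can be seen: at a few extended reads above threshold, a missing call does not show that the mark was absent.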
